A study of Mus musculus with 12 samples.

Results

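The thrombospondin family was followed through RNA-seq libraries of cultured mouse Müller glia, which span the retina as its principal support cells. The family comprised 5 genes, Thbs1, Thbs2, Thbs3, Thbs4 and Comp, taken by their mouse symbols from tables of 49315 genes. It was selected on measured counts, since Thbs1 had the highest count of all genes in each of the 12 libraries, so the levels below are a description and carry no test. The glia came from wild-type (WT) retinas and shared transwell plates with primary RPE, the retinal pigment epithelium behind the photoreceptors. Only the RPE cells were dosed, with 100 nM PNU-282987, an agonist of the alpha7 nicotinic acetylcholine receptor, in DMSO or with DMSO alone. The labels give 2 different DMSO concentrations, so the solvent level is not printed here. After 2 h of co-culture there were 3 libraries with PNU-dosed RPE (PNU below) and 3 with DMSO, and the same number of each after 6 h. All cultures had been passaged 4 times according to the design text. The sample titles name the libraries as biological replicates. Neither the age of the mice nor separate animals or cultures behind the replicate numbers is given in the labels. The p-values below therefore measure only the spread between these libraries, which may be technical.

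Thrombospondins are secreted, calcium-binding glycoproteins of the extracellular matrix that assemble into multimers and bind cell-surface receptors, proteases, growth factors and other matrix proteins. Thbs1 and Thbs2 form one subgroup, which carries type 1 repeats that bind CD36 and restrain blood vessel growth, and Thbs1 can activate latent TGF-beta. Thbs3, Thbs4 and Comp form the other subgroup, lack type 1 repeats and are best known from bone, muscle, tendon and cartilage. Astrocyte thrombospondins promote the formation of synapses through the calcium channel subunit encoded by Cacna2d1.

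The 5 genes lie on different mouse chromosomes, and the positions given here are those of GRCm38. Thbs1 (ENSMUSG00000040152) lies on the plus strand at chr2:118111876-118127133 with 6073 exonic bases. Thbs2 (ENSMUSG00000023885) lies on the minus strand at chr17:14665500-14694262 with 5922 exonic bases. Thbs3 (ENSMUSG00000028047) lies on the plus strand at chr3:89215180-89226837 with 4823 exonic bases. The remaining genes are shorter. Thbs4 (ENSMUSG00000021702) lies on the minus strand at chr13:92751590-92794818 with 3289 exonic bases, and Comp (ENSMUSG00000031849) on the plus strand at chr8:70373558-70382066 with 2967 exonic bases.

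To show how alike the members are, and whether reads of 150 bases can tell them apart, the coding sequences of the GENCODE M21 transcripts were aligned in pairs. Thbs1 and Thbs2 shared 67.8% of aligned coding bases. In the other subgroup Thbs4 and Comp shared 71.0%, Thbs3 and Comp 70.5%, and Thbs3 and Thbs4 68.8%. The lowest identity of the 10 pairs was 63.4%, between Thbs2 and Thbs4. The longest run of identical bases was 26, found between Thbs1 and Thbs2 and again between Thbs4 and Comp. No exact run between members was thus as long as a read. Stretches of 90 coding bases, each starting at a codon of Thbs1, were ranked by how well the other members together matched Thbs1 without gaps. The best one lies within the coding part of a single exon in each gene, near the carboxyl end. It is printed 5′ to 3′ on the coding strand, from GENCODE M21, with the 58 bases that are the same in all 5 genes in capitals.
Thbs1: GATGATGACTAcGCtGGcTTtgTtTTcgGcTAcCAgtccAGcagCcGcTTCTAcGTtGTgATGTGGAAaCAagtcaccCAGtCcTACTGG
Thbs2: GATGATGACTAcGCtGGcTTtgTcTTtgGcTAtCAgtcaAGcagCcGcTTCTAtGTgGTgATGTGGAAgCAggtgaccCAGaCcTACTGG
Thbs3: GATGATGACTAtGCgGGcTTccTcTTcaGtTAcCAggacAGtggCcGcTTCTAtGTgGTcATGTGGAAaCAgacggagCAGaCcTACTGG
Thbs4: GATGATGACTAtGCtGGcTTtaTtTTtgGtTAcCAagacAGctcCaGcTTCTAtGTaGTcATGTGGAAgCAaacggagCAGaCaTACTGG
Comp: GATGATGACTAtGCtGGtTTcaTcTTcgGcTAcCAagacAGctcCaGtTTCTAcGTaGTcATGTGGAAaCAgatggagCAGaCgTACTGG
These stretches lie at chr2:118123327-118123416 in exon 19 of 22 for Thbs1, chr17:14670717-14670806 in exon 19 of 22 for Thbs2, and chr3:89224869-89224958 in exon 20 of 23 for Thbs3. Those of Thbs4 and Comp lie at chr13:92755137-92755226 in exon 19 of 22 and at chr8:70380164-70380253 in exon 16 of 19. Even here Thbs2 had the base of Thbs1 at 80 of 90 positions, while Thbs3, Thbs4 and Comp each had it at 68.

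Library totals ran from 44332013 to 66518799 counts, so that 3 counts, taken as the floor of detection, corresponded to 0.0451 to 0.0677 CPM, which are counts scaled to a total of 1000000. Some libraries within a group were close to copies of each other, although the titles call them biological replicates. Replicates 2 and 3 of PNU at 2 h, replicates 2 and 3 of PNU at 6 h and all 3 of DMSO at 6 h differed by a pairwise coefficient of variation of 0.0163 to 0.0223, against 0.150 to 0.382 for the other pairs. Their counts still differed beyond sampling noise, with a chi-square per degree of freedom of 2.02 to 3.22, and they were kept as separate libraries. Summing each near-identical set left 8 libraries. In contrast, replicate 3 of DMSO at 2 h lay nearer to PNU at 2 h than to its own group, and replicate 1 of PNU at 6 h lay nearer to DMSO at 6 h. The nearest library of replicate 1 of PNU at 2 h was in turn replicate 3 of DMSO at 2 h. Replicates 1 and 2 of DMSO at 2 h each lay nearest to a library of DMSO at 6 h. Tests of the members and of the listed genes, and the correlations, are given with and without 2 libraries. These are replicate 3 of DMSO at 2 h and replicate 1 of PNU at 6 h. Ddx3y, a Y-linked gene, stood at 2.23 CPM in replicate 1 of PNU at 2 h, 5.00 CPM in replicate 3 of DMSO at 2 h and 7.43 and 6.74 CPM in replicates 2 and 3 of PNU at 6 h. In the other 8 libraries it was at most 0.141 CPM. Libraries of a single group thus differed in Y-linked RNA, and its part in the results was not tested.

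The labelled cell type was checked against marker genes. Of 12 Müller glia markers, 6 had a median above 1 CPM, led by Vim at 7047 CPM, Sox9 at 81.4 CPM and Glul, the glutamine synthetase gene, at 67.6 CPM. Rlbp1, which encodes a retinaldehyde-binding protein and is in the Müller glia list, was at most 0.302 CPM, and Gfap was at most 0.326 CPM. Fibroblast and pericyte markers were abundant, with 6 of 8 and 8 of 9 above 1 CPM, led by Col1a2 at 8448 CPM and Acta2 at 2044 CPM. The part of such cells in the family's levels was not tested. Of the RPE markers 1 of 8 exceeded 1 CPM (Mitf, 2.44 CPM), and Rpe65, Tyr, Lrat and Rgr never exceeded 3 counts. None of 8 endothelial markers had a median above 1 CPM. Platelets are a classic source of Thbs1. Of 8 platelet and megakaryocyte markers 2 had a median above 1 CPM, Itga2b, an integrin chain, at 7.39 CPM and Gp1ba, a subunit of the von Willebrand factor receptor, at 3.05 CPM, while Gp6, the platelet collagen receptor, never exceeded 3 counts. The part of such cells in the level of Thbs1 was not tested. Since the libraries are bulk RNA, fewer cells of a type and less RNA per cell cannot be told apart.

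Thbs1 was abundant in every condition. It stood at 17161, 14072 and 14189 CPM in the libraries of PNU at 2 h and at 12082, 12292 and 12961 CPM in those of DMSO at 2 h. At 6 h it stood at 16171, 12764 and 12917 CPM with PNU and at 13043, 13130.5 and 13170.5 CPM with DMSO. The highest value was 1.42 times the lowest, and replicate 1 was the highest library in both PNU groups. Thbs1 took between 1.21% and 1.72% of all counts. The exact 95% binomial interval was 1.205% to 1.211% for the lowest library and 1.712% to 1.720% for the highest, so that counting error was small beside the spread between libraries. The genes next to it in mean CPM were Col1a2, a type I collagen chain, at 8308 CPM, and Lrp1, an endocytic receptor that takes up thrombospondins, at 7370 CPM. Vim, the intermediate filament vimentin, followed at 6894 CPM and Eef1a1, a translation elongation factor, at 6548 CPM. Per kilobase of gene length Thbs1 was no longer first, at ranks 7 to 11 over the libraries.

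Thbs2 was the second member by level. It was measured at 373, 200 and 202 CPM with PNU at 2 h and at 296, 304 and 254 CPM with DMSO at 2 h. At 6 h it was measured at 312, 108 and 108 CPM with PNU and at 331, 333 and 334 CPM with DMSO. In both PNU groups replicate 1 lay well above replicates 2 and 3, which are near-identical libraries, and its highest library was 3.47 times the lowest. Per kilobase, the level of Thbs1 was 38.4 to 117 times that of Thbs2 in the same library, with a median of 47.3.

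Thbs3 came next. Its libraries held 18.8, 18.6 and 17.5 CPM with PNU at 2 h and 56.1, 49.7 and 20.4 CPM with DMSO at 2 h. At 6 h they held 39.9, 23.1 and 23.0 CPM with PNU and 47.8, 44.5 and 45.95 CPM with DMSO. Its low libraries were thus all 3 of PNU at 2 h, replicate 3 of DMSO at 2 h and replicates 2 and 3 of PNU at 6 h. Replicate 1 of PNU at 2 h, low for Thbs3, was the highest library of Thbs2, while the remaining 5 were also the 5 lowest libraries of Thbs2. Per kilobase, the level of Thbs2 was 3.80 to 16.2 times that of Thbs3, with a median of 6.00.

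Comp, the cartilage oligomeric matrix protein, was near the limit of measurement. It had 0.508, 0.457 and 0.571 CPM with PNU at 2 h and 0.574, 0.386 and 0.626 CPM with DMSO at 2 h. At 6 h it had 0.667, 0.731 and 0.721 CPM with PNU and 0.902, 0.473 and 0.528 CPM with DMSO. Each value rests on only 20 to 47 counts. The library with 20 counts has an exact 95% interval of 0.236 to 0.596 CPM, and the library at 0.902 CPM one of 0.645 to 1.23 CPM. These intervals, which cover counting error only, are wide beside the differences between the group means. Thbs4, known from heart, muscle and tendon, had 2, 2 and 0 counts with PNU at 2 h and 2, 2 and 1 counts with DMSO at 2 h. With PNU at 6 h it had 6, 0 and 0 counts, and with DMSO at 6 h 0, 4 and 1 counts. It was at or under the floor in 10 of 12 libraries and did not enter the tests. In a library with no count, 3 counts would correspond to at most 0.0677 CPM.

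**Figure D1:**
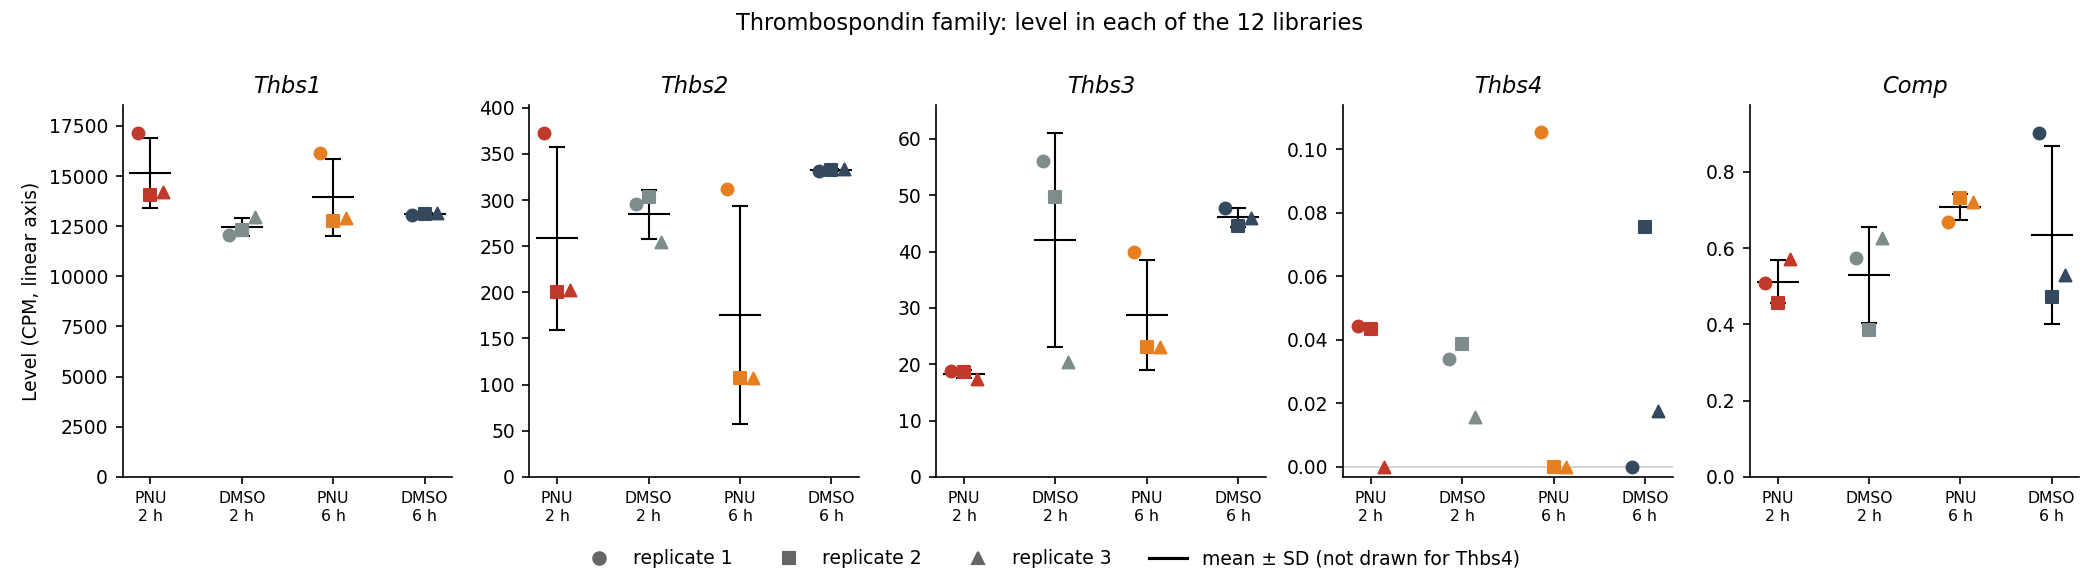
Level of each member in CPM (linear vertical axes that differ between panels) in the 3 libraries of each group, with marker shapes for replicate numbers. Horizontal lines and bars are the mean and SD over 3 libraries. Thbs1 is at 12082 CPM or more everywhere, replicate 1 lies apart from replicates 2 and 3 in both PNU groups for Thbs2, and replicate 3 of DMSO at 2 h lies with the PNU libraries for Thbs3.

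The members therefore kept the order Thbs1, Thbs2, Thbs3, Comp, Thbs4. Thbs1 alone made up 97.2% to 99.0% of the family's CPM, and 97.0% to 98.9% per kilobase. Between groups the order of the means differed by gene. For Thbs1 the mean was highest with PNU at 2 h, then PNU at 6 h, DMSO at 6 h and DMSO at 2 h. Only the last neighbours in that order, DMSO at 6 h and DMSO at 2 h, had ranges that did not overlap. From lowest to highest, Thbs2 ran PNU at 6 h, PNU at 2 h, DMSO at 2 h and DMSO at 6 h, and the ranges of neighbours overlapped except between the DMSO groups. In the same direction Thbs3 ran PNU at 2 h, PNU at 6 h, DMSO at 2 h and DMSO at 6 h, and only the PNU groups had ranges that did not overlap. For Comp and Thbs4 the ranges of all neighbouring groups overlapped.

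The effect of the drug after 2 h of co-culture was compared next. Thbs1 averaged 15140 ± 1751 CPM with PNU and 12445 ± 459 CPM with DMSO (SD, n = 3 each), a log2 fold change of 0.32 ± 0.11 (SE). Every PNU library lay above every DMSO library. The 95% interval of the fold change was 0.07 to 0.57, with an unadjusted p of 0.0160 and an adjusted p of 0.0996 in edgeR's quasi-likelihood test with Benjamini-Hochberg adjustment over 17164 genes. Thbs3 averaged 18.3 ± 0.716 CPM with PNU and 42.1 ± 19.1 CPM with DMSO (SD, n = 3 each). Its log2 fold change was -1.17 ± 0.32 (SE), with a 95% interval of -1.88 to -0.46, an unadjusted p of 0.00397 and an adjusted p of 0.0722 in edgeR. All PNU libraries lay below all DMSO libraries, and the nearest DMSO library was replicate 3.

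Thbs2 averaged 259 ± 99.2 CPM with PNU and 285 ± 26.5 CPM with DMSO at 2 h, a log2 fold change of -0.10 ± 0.39 and an edgeR adjusted p of 0.878. Comp averaged 0.512 ± 0.0573 CPM with PNU and 0.529 ± 0.126 CPM with DMSO, a log2 fold change of -0.02 ± 0.29 and an edgeR adjusted p of 0.975. The intervals, -0.95 to 0.75 for Thbs2 and -0.66 to 0.62 for Comp, leave room for sizeable changes in either direction. No member of the 4 tested passed an adjusted p of 0.05, the threshold used throughout, where 50 genes or 0.291% of all tested genes did. At an unadjusted p under 0.05 there were 2 members, Thbs1 and Thbs3, among 5149 genes in all. The share of all genes whose PNU libraries all lay above the DMSO libraries was 9.06%, and the share all below was 13.6%, beside 1 member in each direction.

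The 2 h result depended on the tool and on a single library. DESeq2 called 16.6% of the genes it adjusted, and Thbs1 (log2 fold change 0.33, adjusted p = 0.0461) and Thbs3 (-1.15, adjusted p = 0.00589) were among them. In contrast, limma-voom called neither, and 75 of 17164 genes in all. Without replicate 3 of DMSO at 2 h, edgeR called 43.8% of all genes, with Thbs1 at 0.35 (adjusted p = 0.0358) and Thbs3 at -1.50 (adjusted p = 0.000286). With near-identical libraries summed, Thbs1 stood at 0.37 and Thbs3 at -1.16, each with an edgeR adjusted p of 0.550, and no gene of 18400 was called. Thbs3 overlaps Mtx1, a mitochondrial import gene on the opposite strand, over 318 exonic bases, and whether the counting used strand is not stated. Mtx1 averaged 44.3 CPM with PNU and 50.4 CPM with DMSO at 2 h. Whether reads of the shared bases were counted for either gene cannot be told, and their part in the level of Thbs3 was not tested. Thbs1 shares 208 exonic bases with Gm29233, a lincRNA on the opposite strand that was counted at 1.46 to 3.46 CPM.

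After 6 h of co-culture the members with the larger differences were Thbs2 and Thbs3. Thbs2 averaged 176 ± 118 CPM with PNU and 333 ± 1.31 CPM with DMSO (SD, n = 3 each). Its log2 fold change was -0.90 ± 0.39 (SE), with a 95% interval of -1.76 to -0.04, an unadjusted p of 0.0410 and an adjusted p of 0.294 in edgeR. Thbs3 averaged 28.7 ± 9.75 CPM with PNU and 46.1 ± 1.67 CPM with DMSO (SD, n = 3 each), a log2 fold change of -0.67 ± 0.32 (SE) and an edgeR adjusted p of 0.343. For both genes all 3 PNU libraries lay below all 3 DMSO libraries, with replicate 1 of PNU the nearest to them. The share of all genes in that state was 20.8%. No member had all PNU libraries above, where 14.1% of genes did.

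Thbs1 averaged 13951 ± 1925 CPM with PNU and 13115 ± 65.3 CPM with DMSO at 6 h, a log2 fold change of 0.10 ± 0.11 with an interval of -0.14 to 0.35 and an edgeR adjusted p of 0.704. Its PNU libraries fell on both sides of the DMSO libraries. Comp averaged 0.706 ± 0.0340 CPM with PNU and 0.634 ± 0.234 CPM with DMSO, a log2 fold change of 0.18 ± 0.28 and an edgeR adjusted p of 0.810. In edgeR 0 of 4 members passed at 6 h, beside 181 genes or 1.05% of all tested. At an unadjusted p under 0.05 there was 1 member, Thbs2, among 2683 genes, and DESeq2 and limma-voom called 0 members. DESeq2 called 5.51% of genes and limma-voom 178 of 17164.

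Replicate 1 of PNU at 6 h weighed on the size of these differences. Without it the log2 fold change of Thbs2 was -1.61 (edgeR adjusted p = 0.00637, with 6% of all genes called), that of Thbs3 -0.99 (adjusted p = 0.104) and that of Thbs1 -0.02 (adjusted p = 0.942). Without replicate 3 of DMSO at 2 h, which enters only through the shared estimate of the spread, Thbs3 stayed at -0.67 with an adjusted p of 0.0492 and 9.1% of genes were called. With both libraries left out, Thbs1 at 2 h was 0.35 (adjusted p = 0.00670) and Thbs3 at 2 h -1.50 (adjusted p = 9.78e-08), with 52.2% of genes called. At 6 h Thbs2 was then -1.61 (adjusted p = 0.00211) and Thbs3 -0.99 (adjusted p = 9.12e-06), with 28.6% called. These 2 libraries were picked for lying close to the opposite treatment, so leaving them out sets the groups further apart by construction. With near-identical libraries summed, DMSO at 6 h was a single library, assumed to vary like the other groups, Thbs2 stood at -0.66 and Thbs3 at -0.54, and each had an edgeR adjusted p of 1.00.

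**Figure D2:**
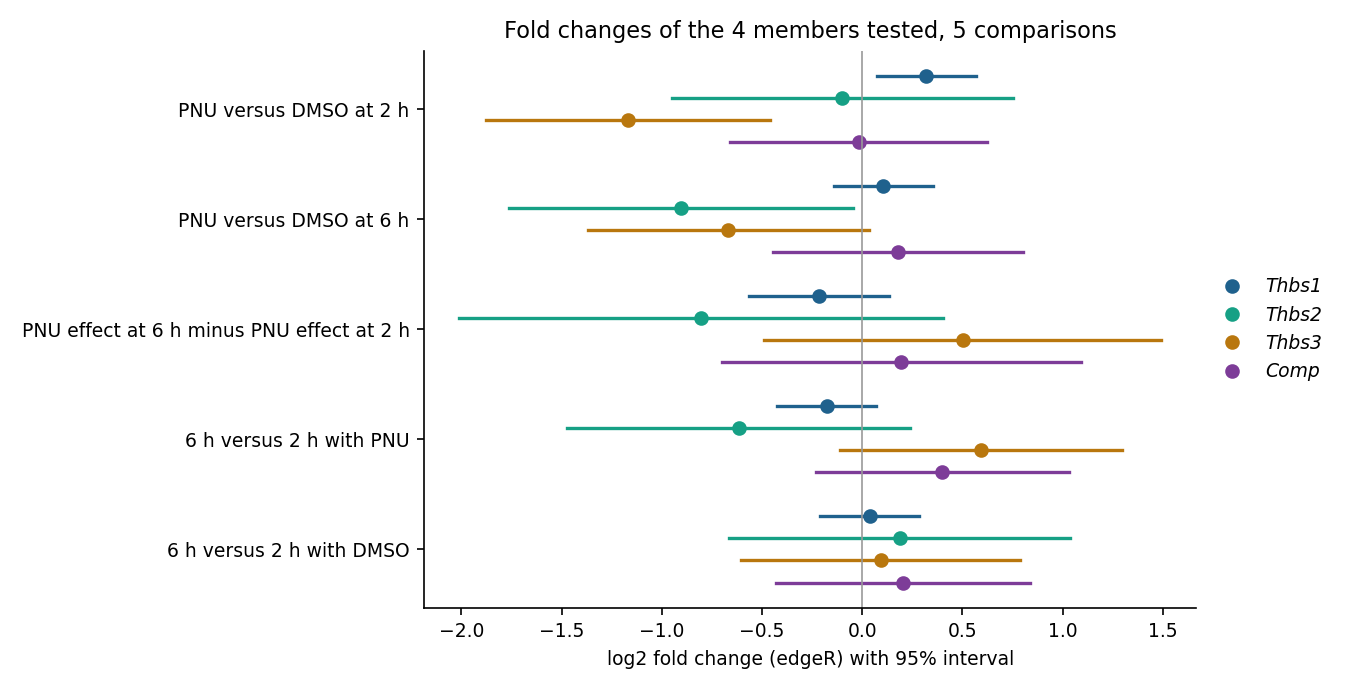
Log2 fold changes (horizontal axis) with 95% intervals from edgeR over all 12 libraries, for the 4 members tested in 5 comparisons. Intervals of Thbs1 and Thbs3 at 2 h and of Thbs2 at 6 h exclude 0 before adjustment, and no member passed an adjusted p of 0.05.

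Whether the effect of PNU differed between the times was tested as an interaction. The effect at 6 h minus the effect at 2 h was -0.21 ± 0.16 for Thbs1, -0.80 ± 0.55 for Thbs2, 0.50 ± 0.45 for Thbs3 and 0.20 ± 0.41 for Comp (log2, SE). Adjusted p-values in edgeR were 0.629, 0.602, 0.692 and 0.875 in that order of genes. In edgeR 0 of 4 members passed, and none had an unadjusted p under 0.05, beside 0.035% of all tested genes called. DESeq2 and limma-voom called 0 members too, where DESeq2 called 1.77% of genes and limma-voom 4 of 17164. With the replicate number as a block Thbs2 stood at -0.90 with an unadjusted p of 0.0435 and an adjusted p of 0.431 in edgeR. With both of the libraries named above left out, 21.8% of genes were called, Thbs2 at -1.44 (adjusted p = 0.0217) and Thbs3 at 0.51 (adjusted p = 0.00989) among them.

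Time was compared within each treatment, on libraries that the comparisons of PNU with DMSO also use. With PNU, 6 h against 2 h gave log2 fold changes of -0.18 ± 0.11 for Thbs1, -0.62 ± 0.39 for Thbs2, 0.59 ± 0.32 for Thbs3 and 0.40 ± 0.29 for Comp (SE). Adjusted p-values in edgeR were 0.276, 0.274, 0.208 and 0.338 in that order, so 0 of 4 members passed, beside 16.1% of all tested genes. No member had an unadjusted p under 0.05 in edgeR. DESeq2 and limma-voom called 0 members, beside 24.3% and 14.9% of genes. Libraries of equal replicate number moved alike in these 2 groups. Replicates 2 and 3 are near-identical in each group, so a pairing by number cannot be shown. In each of the 3 numbered pairs Thbs1 and Thbs2 were lower at 6 h than at 2 h, and Thbs3 and Comp were higher. With the replicate number as a block Thbs2 stood at -0.69, with an unadjusted p of 0.0308 and an adjusted p of 0.102 in edgeR, so that no call changed. For Thbs2 the pairs were 312 CPM at 6 h and 373 CPM at 2 h, 108 and 200 CPM, and 108 and 202 CPM. All 6 h libraries lay above all 2 h libraries for Thbs3 and Comp, as for 30.7% of genes, and below for no member, against 21% of genes.

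The call for time with PNU again turned on single libraries. Without replicate 3 of DMSO at 2 h, Thbs3 was at 0.59 (adjusted p = 0.0333, 34.2% of genes called). Without replicate 1 of PNU at 6 h, Thbs2 was at -1.33 (adjusted p = 0.0108, 9.71% called). Without both, Thbs1 was at -0.30 (adjusted p = 0.0243), Thbs2 at -1.33 (adjusted p = 0.00453) and Thbs3 at 0.28 (adjusted p = 0.0258), with 35.4% called. With DMSO alone, log2 fold changes of 6 h over 2 h were 0.04 ± 0.11 for Thbs1, 0.19 ± 0.39 for Thbs2, 0.09 ± 0.32 for Thbs3 and 0.20 ± 0.29 for Comp (SE), with edgeR adjusted p-values of 0.980, 0.963, 0.982 and 0.943. In edgeR 0 members and 0% of all genes passed, with 818 genes and no member at an unadjusted p under 0.05. DESeq2 called 23 genes and no member. Thbs1 and Thbs2 had all 6 h libraries above all 2 h libraries, as 6.12% of genes did, and none had them all below, against 3.64% of genes.

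**Figure D3:**
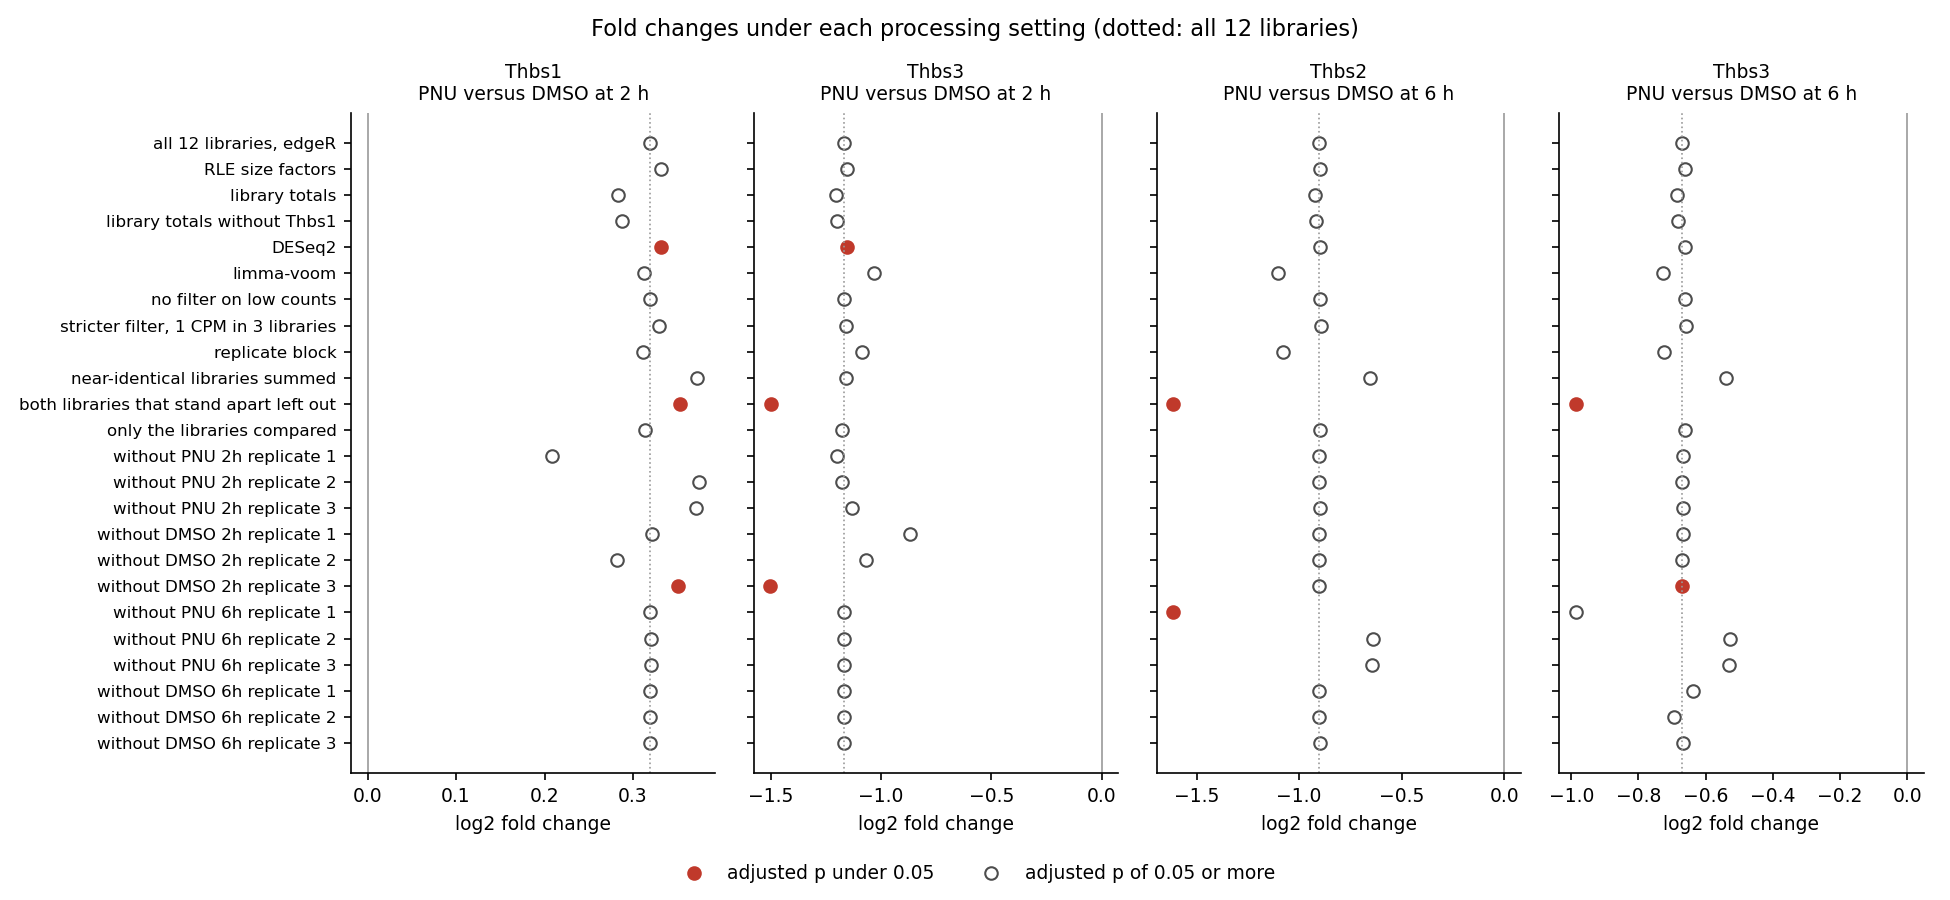
Log2 fold change (horizontal axes, which differ between panels) of Thbs1 and Thbs3 at 2 h and of Thbs2 and Thbs3 at 6 h under each processing setting, 1 row per setting. Filled points passed an adjusted p of 0.05. All 4 kept their sign under every setting drawn, and passed in at most 3 of 23 alternatives, with DESeq2 or where replicate 3 of DMSO at 2 h, replicate 1 of PNU at 6 h or both were left out.

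The members did not share a single pattern over the libraries. Pearson's r of log2(CPM + 0.1) over the 12 libraries was 0.28 for Thbs1 with Thbs2, -0.41 for Thbs1 with Thbs3 and 0.51 for Thbs2 with Thbs3. With near-identical libraries averaged to 8 points these were 0.33, -0.44 and 0.39. Without replicate 3 of DMSO at 2 h and replicate 1 of PNU at 6 h, which leaves 10 libraries, they were 0.23, -0.66 and 0.53. These values are descriptions, since libraries of a group share their treatment, time and, in part, their source.

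The genes whose pattern was most like each member were looked up among 8977 genes with a median of at least 10 CPM. They were picked by r over these same libraries, so high and low libraries shared with their member follow from the pick. For Thbs1 they were Gfpt2 (r = 0.95), the first enzyme of the hexosamine pathway, Rdh10 (0.91), a retinol dehydrogenase, and Sdc1 (0.90), the heparan sulfate proteoglycan syndecan-1. B4galt1 (0.90), a galactosyltransferase, and Vdr (0.88), the vitamin D receptor, completed them. Gfpt2 stood at 83.8, 40.9 and 41.2 CPM with PNU at 2 h and at 24.8, 25.3 and 24.6 CPM with DMSO at 2 h. At 6 h it stood at 61.2, 22.1 and 22.4 CPM with PNU and at 22.9, 22.9 and 23.5 CPM with DMSO. As for Thbs1, the 2 highest libraries were replicate 1 of each PNU group. Relative to its lowest library Gfpt2 varied more than Thbs1.

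For Thbs2 the most similar genes were Pdgfra (r = 0.98), a growth factor receptor of stromal cells, C3 (0.97), the central complement component, and Tmem119 (0.97), a membrane protein known from microglia and bone. Pdgfra stood at 157, 90.9 and 93.2 CPM with PNU at 2 h and at 145, 158 and 131 CPM with DMSO at 2 h. At 6 h it stood at 153, 51.5 and 52.1 CPM with PNU and at 139, 139 and 141 CPM with DMSO. The near-identical replicates 2 and 3 of PNU were low for both genes, and lowest at 6 h. Pdgfra is also among the fibroblast markers, whose summed level was 14952 to 15885 CPM with PNU at 6 h and 15059 to 15112 CPM with DMSO at 6 h. That sum is mostly Col1a2 and Col1a1, and single markers differed in direction. At 6 h 2 of 8 fell in edgeR and 0 rose, beside 0.484% of all genes lower and 0.571% higher. Dcn, the small matrix proteoglycan decorin, stood at 15.8, 29.1 and 28.5 CPM with PNU and at 52.1, 54.6 and 54.5 CPM with DMSO (adjusted p = 0.0467). Lum, the related lumican, stood at 0.0351, 0.0777 and 0 CPM with PNU and at 0.835, 1.13 and 0.845 CPM with DMSO (adjusted p = 0.0108). Dcn passed in 12 of 23 alternatives and Lum in 19 of 22. Col3a1, a fibrillar collagen chain, stood at 3498, 1735 and 1777 CPM with PNU and at 2887, 2901 and 2918 CPM with DMSO, so that replicates 2 and 3 of PNU were low, as they were for Thbs2 and Pdgfra (adjusted p = 0.698 for Col3a1 and 0.422 for Pdgfra). At 6 h all PNU libraries lay above all DMSO libraries for Col1a1 and Thy1, as for 14.1% of genes. They all lay below for Dcn and Lum, as for 20.8% of genes. Of 9 pericyte and smooth muscle markers, 2 rose and 0 fell in edgeR at 6 h. For 5 of these 9 all PNU libraries lay above, and for 1 all lay below. The part of fibroblast-like cells in the level of Thbs2 was not tested.

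For Thbs3 the most similar genes were Slc38a7, an amino acid transporter, Gstm1, a glutathione transferase, and Slc25a11, a mitochondrial carrier (r = 0.99 each). Gstm1 stood at 66.6, 70.2 and 63.7 CPM with PNU at 2 h and at 263, 230 and 67.3 CPM with DMSO at 2 h. At 6 h it stood at 201, 82.2 and 82.1 CPM with PNU and at 224, 222 and 219 CPM with DMSO. Its low libraries were those of Thbs3. None of these 11 genes passed an adjusted p of 0.05 in edgeR for PNU against DMSO at 2 h or at 6 h. Without both libraries left out together above, r with their member stayed between 0.88 and 1.00 for all 11. Yet only 1 of 5 for Thbs1, 1 of 3 for Thbs2 and 1 of 3 for Thbs3 were still among the most similar.

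**Figure D4:**
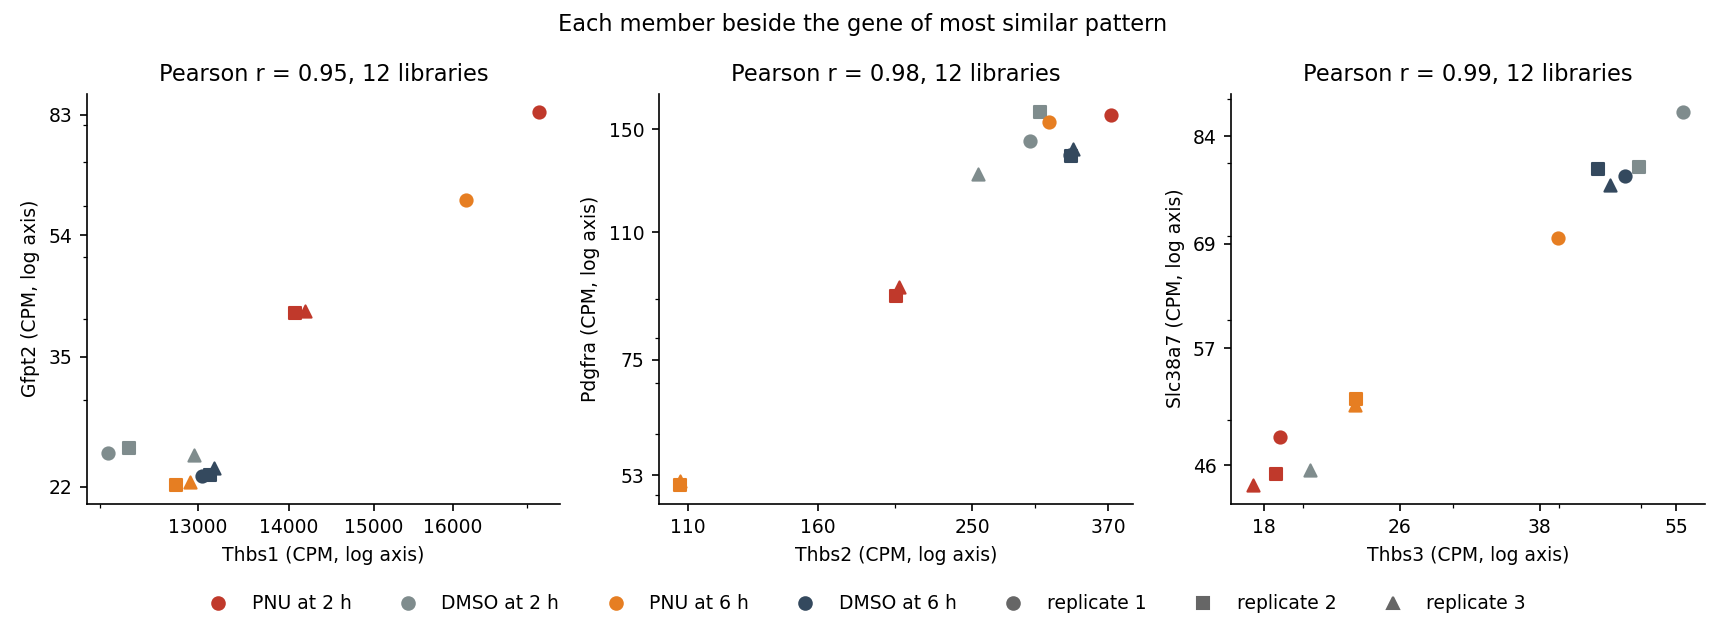
Level of Thbs1, Thbs2 and Thbs3 (horizontal, CPM, log axis) against the gene of most similar pattern (vertical, CPM, log axis) in the 12 libraries, coloured by group with marker shapes for replicate numbers. Replicate 1 of both PNU groups sits at the upper end for Thbs1, replicates 2 and 3 of PNU at 6 h at the lower end for Thbs2, and replicate 3 of DMSO at 2 h among the PNU libraries for Thbs3.

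Genes that act with thrombospondins were examined as lists. Over all genes tested, edgeR called 0.21% higher and 0.0816% lower with PNU at 2 h, 0.571% higher and 0.484% lower with PNU at 6 h, and 7.42% higher and 8.66% lower at 6 h against 2 h with PNU. An unadjusted p under 0.05 was found in edgeR for 5149 of 17164 genes at 2 h and for 2683 at 6 h. DESeq2 called 16.6% of the genes it adjusted at 2 h and 5.51% at 6 h. Unadjusted and DESeq2 counts of the lists are to be read beside these. The receptors and cell-surface partners were expressed broadly, but unevenly. Lrp1 averaged 8234 ± 745 CPM with PNU and 6817 ± 990 CPM with DMSO at 2 h, and 7211 ± 423 CPM with PNU and 7217 ± 36.7 CPM with DMSO at 6 h. Cd47, the ubiquitous receptor for the carboxyl end of Thbs1, averaged 60.4 CPM with PNU and 68.3 CPM with DMSO at 2 h, and 83.7 CPM with PNU and 72.1 CPM with DMSO at 6 h. Cd36, the receptor for the type 1 repeats, was at most 0.880 CPM in any library, and Cacna2d1 ranged from 25.4 to 49.4 CPM. The 2 receptors most often named with Thbs1 thus differed widely in level.

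Of the 16 receptor genes tested at 2 h, 1 rose with PNU and 0 fell in edgeR. The riser was Itgb3, the integrin beta3 chain, at 137, 117 and 118 CPM with PNU and 53.8, 55.9 and 78.5 CPM with DMSO, with a log2 fold change of 1.02 ± 0.13 (SE) and an adjusted p of 0.0300. At an unadjusted p under 0.05 in edgeR, 7 of the list were higher and 1 was lower. The median of the list was 0.39 and 13 of 16 values were above 0, beside a median of -0.01 over all genes tested. Itgb3 passed in 12 of 23 alternatives and had an adjusted p of 0.550 with near-identical libraries summed. At 6 h 0 of 16 rose and 0 fell in edgeR, with 5 higher and 2 lower at an unadjusted p under 0.05, and DESeq2 called 3 higher and 1 lower. The median was then 0.23, with 14 of 16 above 0. Between 6 h and 2 h with PNU, 2 rose and 3 fell, among them Itgb3 at -1.34 (adjusted p = 0.00124) and Sdc4, the proteoglycan syndecan-4, at -1.57 (adjusted p = 0.0196). Stim1, a calcium sensor of the endoplasmic reticulum, rose by 0.31 (adjusted p = 0.0201).

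Of 16 TGF-beta ligands, latency proteins, receptors and Smads, 1 rose and 0 fell with PNU at 2 h in edgeR. This was Smad3, a signal transducer of TGF-beta receptors, at 86.6 ± 4.99 CPM with PNU, against 63.4 ± 4.87 CPM with DMSO (SD, n = 3 each), a log2 fold change of 0.49 and an adjusted p of 0.0327. At 6 h 0 rose and 1 fell. That gene was Ltbp4, a latent TGF-beta binding protein, at 82.6 ± 3.23 CPM with PNU, against 156 ± 1.01 CPM with DMSO, a log2 fold change of -0.90 and an edgeR adjusted p of 0.0183. At an unadjusted p under 0.05 in edgeR, 6 were higher and 0 lower at 2 h, and 4 higher and 2 lower at 6 h. The medians of the list were 0.28 at both times, beside -0.01 and -0.00 over all genes. With PNU, 5 fell and 0 rose between 6 h and 2 h, with the lowest p-values for Smad3 at -0.39 (adjusted p = 0.0108) and Smad7, an inhibitory Smad, at -0.85 (adjusted p = 0.0256). With near-identical libraries summed, none of these passed, and neither did any other gene.

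Among 14 other matricellular proteins, 0 rose and 0 fell with PNU at 2 h in edgeR. At an unadjusted p under 0.05, 1 was higher and 3 were lower, beside 5149 of all 17164 genes. DESeq2 called 1 higher and 3 lower, beside 16.6% of the genes it adjusted. At 6 h 1 rose and 0 fell. This was Ccn5, a secreted CCN protein, at 133 ± 72.9 CPM with PNU, against 41.4 ± 0.843 CPM with DMSO (SD, n = 3 each), a log2 fold change of 1.70 and an edgeR adjusted p of 0.0243. Its libraries held 217, 89.4 and 93.1 CPM with PNU and 41.8, 41.98 and 40.5 CPM with DMSO, and without replicate 1 of PNU at 6 h the log2 fold change was 1.15 (adjusted p = 0.00168). Between 6 h and 2 h with PNU, Ccn1 rose by 0.41 (adjusted p = 0.0177) and Tgfbi fell by 0.86 (adjusted p = 0.0408). Tgfbi, a matrix protein induced by TGF-beta, stood at 68.6, 31.9 and 33.1 CPM at 6 h and at 66.3, 81.9 and 84.2 CPM at 2 h, so that it was lower at 6 h only in replicates 2 and 3. Its log2 fold change was -1.31 without replicate 1 of PNU at 6 h (adjusted p = 0.000499) and -0.63 with near-identical libraries summed (adjusted p = 0.438).

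Proteins outside the family that carry type 1 repeats gave 0 called of 14 tested at 2 h in edgeR, with 2 higher and 4 lower at an unadjusted p under 0.05, while DESeq2 called 2 higher and 2 lower. At 6 h 1 rose and 0 fell. This was Sema5b, a transmembrane semaphorin with such repeats, at 3.41, 3.11 and 2.92 CPM with PNU and 0.722, 0.643 and 0.687 CPM with DMSO, with a log2 fold change of 2.21 ± 0.17 (SE) and an adjusted p of 0.000323. It passed in 22 of 23 alternatives, the exception being the fit with near-identical libraries summed, where every other gene lost its call too. With PNU, 3 rose and 1 fell between 6 h and 2 h, among them Rspo3, a secreted enhancer of Wnt signalling, at 3.23 (adjusted p = 0.0123) and Sema5a at -1.04 (adjusted p = 0.0156).

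The 6 proteases that cut or bind thrombospondins gave no gene past the threshold in edgeR at 2 h or at 6 h, and DESeq2 called 1 higher and 1 lower at 2 h. At an unadjusted p under 0.05, 1 was higher and 2 were lower at 2 h, and 1 was higher at 6 h. Of all 17164 genes, 5149 had such a p at 2 h and 2683 at 6 h. Adamts1, a metalloprotease that cleaves Thbs1 and Thbs2, rose between 6 h and 2 h with PNU by 1.37 (edgeR adjusted p = 0.0434). Of 12 matrix partners of Comp 8 were tested, and 0 passed in edgeR at 2 h and at 6 h, with 3 lower at each time at an unadjusted p under 0.05. DESeq2 called 2 lower at 2 h and none at 6 h. Col2a1, the cartilage collagen, fell between 6 h and 2 h with PNU by 3.11 (edgeR adjusted p = 0.0248). Its libraries held 3.69, 13.5 and 12.6 CPM at 6 h and 66.5, 89.3 and 92.0 CPM at 2 h, while replicate 3 of DMSO at 2 h held 79.3 CPM. Of 8 tendon and cartilage markers 5 had a median above 1 CPM, namely Col2a1 at 16.4 CPM and the tendon genes Mkx at 3.28, Tnmd at 2.55, Fmod at 1.43 and Scx at 1.37 CPM. Acan and Col9a1, cartilage matrix genes, never exceeded 3 counts in any library.

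Of 13 transcriptional regulators linked to Thbs1, 1 rose with PNU at 2 h (Smad3, also in the TGF-beta list) and 1 fell at 6 h in edgeR. The gene that fell was Egr1, an immediate early transcription factor, at 90.2 ± 29.0 CPM with PNU, against 229 ± 0.839 CPM with DMSO (SD, n = 3 each), a log2 fold change of -1.33 ± 0.19 (SE) and an adjusted p of 0.00929. Egr1 passed in 18 of 23 alternatives. At an unadjusted p under 0.05 in edgeR, 5 of the 13 were higher and 2 lower at 2 h. At 6 h 1 was higher and 2 were lower. With PNU, 6 of the 13 fell and 0 rose between 6 h and 2 h, against 8.66% of all genes lower, with the lowest p-values for Egr1 at -1.48 (adjusted p = 0.00267), Smad3 at -0.39 and Myc at -1.004 (adjusted p = 0.0138), beside the fold change of -0.18 for Thbs1 itself. Each list gene named here as rising or falling lost its call in 1 to 12 of 23 alternatives. With near-identical libraries summed the call was lost for these genes and for every other gene, so that loss is not particular to them. Without replicate 1 of PNU at 6 h, 6 of the 21 calls listed by the naming rule were lost, all for time with PNU, and these included Sdc4 (adjusted p = 0.0541), Smad7 (0.0739), Adamts1 (0.112) and Col2a1 (0.0605). Without replicate 3 of DMSO at 2 h, and without both libraries, all 21 passed in edgeR.

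Over the 7 lists together 86 distinct genes were tested. With PNU against DMSO at 2 h edgeR called 2 of them (2.33%, beside 0.291% of all genes) and DESeq2 27 (31.4%, beside 16.6%). At 6 h edgeR called 4 (4.65%, beside 1.05%) and DESeq2 13 (15.1%, beside 5.51%). Between 6 h and 2 h with PNU, the comparison with the most calls in edgeR, there were 23 (26.7%, beside 16.1%), and DESeq2 called 30 (34.9%, beside 24.3%) and limma-voom 21 (24.4%, beside 14.9%). For the effect of PNU at 6 h minus that at 2 h edgeR called 0. It gave an unadjusted p under 0.05 for 15 of the 86, beside 1936 of all 17164 genes. DESeq2 called 6 (6.98%, beside 1.77%) and limma-voom 0. Between 6 h and 2 h with DMSO all 3 tools called 0, with 6 at an unadjusted p under 0.05 in edgeR, beside 818 of all genes. Without both libraries left out together above, edgeR called 58 of the 86 at 2 h (67.4%, beside 52.2% of all genes). It called 45 at 6 h (52.3%, beside 28.6%) and 41 for time with PNU (47.7%, beside 35.4%). These shares are descriptions of lists chosen with earlier results known.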

How the data were processed

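Poly(A) RNA of 12 libraries had been sequenced as paired reads of 150 bases, trimmed with fastp 0.23.2, aligned to GRCm38 with STAR 2.5.2b and counted with featureCounts of Subread 1.5.2, per the labels' protocols. DESeq2 is listed in the submitters' processing notes without a stated use. The authors deposited a table of whole-number, not normalized counts for each library. The annotation release, the strand setting and the treatment of reads with several matches are not given in the sources used here. GENCODE M21 gave symbols for 48970 of 49315 genes.

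Levels are CPM over each library's total, and CPM per kilobase use the gene length in the files. The main test was that of edgeR 4.0.16 (R 4.3.3): filterByExpr, which kept 17164 genes, TMM scaling and a robust quasi-likelihood fit of 4 group means over all 12 libraries, with Benjamini-Hochberg adjustment over all genes. The common biological coefficient of variation was 0.198. The steps were tested on simulated counts of independent libraries. That test does not cover near-identical libraries or libraries that lie near another group. Groups and replicate numbers come from the sample titles. Same-numbered PNU libraries at 6 h and 2 h deviated together from their group means (correlations of 0.258, 0.200 and 0.192). Replicates 2 and 3 are near-identical in both groups, so these values cannot show that the numbers pair the samples. In the other comparisons the correlations ran from -0.0468 to 0.0802.

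Results were recomputed with 3 other scalings, with DESeq2 1.42.0, with voom of limma 3.58.1, with other filters, a replicate block, summed near-identical libraries and libraries left out. The members, the lists and the alternatives were chosen with earlier results of these data known. Named genes are the 5 members, the 4 genes next to Thbs1 in mean CPM, the genes most like each member by Pearson's r (5 for Thbs1, 3 for the others with a median of at least 1 CPM), up to 3 passing genes per list and comparison, overlapping genes and marker genes. Cd36, Cd47 and Cacna2d1 were named for their roles after their values were seen. One marker gene is not reported here.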

Additional observations from a re-analysis of the deposited data

How the results depend on the processing

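Over the 23 alternatives the fold changes of Thbs1, Thbs2, Thbs3 and Comp in the 5 comparisons gave 451 values, of which 421 kept their sign and their side of the adjusted threshold of 0.05, 17 newly passed it and 13 changed sign. With all libraries in edgeR 0 members passed in each comparison. At 2 h DESeq2 called 2 members, beside 16.6% of the genes it adjusted. Leaving out both replicate 3 of DMSO at 2 h and replicate 1 of PNU at 6 h gave 2, beside 52.2% of all genes. Leaving out single libraries gave 0 to 2, with 43.8% of genes called where there were 2. At 6 h leaving out both gave 2, beside 28.6% of genes. Single libraries gave 0 to 1, with 6% or 9.1% called where there was 1. For the effect at 6 h minus that at 2 h leaving out both gave 2, beside 21.8% of genes. For time with PNU it gave 3, beside 35.4%. Single libraries gave 0 to 1 for time with PNU, with 9.71% or 34.2% called where there was 1. None of the values that changed sign had passed the threshold, and the cause was not tested. Thbs2 at 2 h turned to 0.058 with near-identical libraries summed and ran from -0.47 to 0.059 over single libraries left out. Comp at 2 h turned to 0.016 with limma-voom and to 0.12 without both libraries, and ran from -0.22 to 0.12 over single libraries. Thbs1 at 6 h turned to -0.017 without both and ran from -0.017 to 0.17. For time with DMSO, Thbs3 turned to -0.24 without both and ran from -0.24 to 0.40, and Comp ran from -0.13 to 0.38. Other scalings, including library totals without Thbs1, and other filters changed no call of a member. The replicate block changed no call of a member either: Thbs3 at 2 h had -1.09 with an adjusted p of 0.0545 under the block, and Thbs2 at 6 h -1.08 with 0.0902. Over all genes, calls at 2 h numbered 50 with edgeR, 2511 with DESeq2, 7724 without replicate 3 of DMSO at 2 h and 0 with near-identical libraries summed, where 1487 had an unadjusted p under 0.05. At 6 h they numbered 181, 923, 1606 and 0, with 267 at an unadjusted p under 0.05 in the summed fit. Adjusted p-values over the alternatives ran from 0.00670 to 0.550 for Thbs1 at 2 h, from 9.78e-08 to 0.550 for Thbs3 at 2 h, from 0.00211 to 1.00 for Thbs2 at 6 h and from 9.12e-06 to 1.00 for Thbs3 at 6 h. The genes named as most like a member were 0 of 5, 0 of 3 and 0 of 3 the same with Spearman's rho for Thbs1, Thbs2 and Thbs3, 4 of 5, 2 of 3 and 1 of 3 with near-identical libraries averaged, and 1 of 5, 1 of 3 and 1 of 3 without both libraries, an alternative chosen after seeing the data. Comp rests on 20 to 47 counts a library and Thbs4 on at most 6, so differences in these genes were not detectable at this depth unless large. A fit of only the libraries compared was not run for the difference between the times.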
